A study of Mus musculus with 8 samples.

Results

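The 53 genes described here encode the nuclear subunits of respiratory chain complexes II, III and IV and of ATP synthase (complex V), with the electron carrier cytochrome c. They were chosen by name from the 52636 genes listed: every symbol beginning with Sdha, Sdhb, Sdhc, Sdhd, Uqcr, Cox4, Cox5, Cox6, Cox7, Cox8 or Atp5, plus Cyc1 and Cycs, without the 6 symbols that end in the pseudogene suffix -ps. The rule uses no measured value. By complex they fall into 8 genes for complex II, 9 for III, 18 for IV and 17 for V, and 1 for cytochrome c. The name rule also caught genes that are not structural subunits of these complexes: the 4 complex II assembly factors Sdhaf1 to Sdhaf4, the supercomplex factor Cox7a2l, and Atp5s and Atp5sl, which RefSeq names Dmac2l and Dmac2. The other 46 are subunits or the carrier.

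RNA of whole liver was sequenced in 8 libraries. The mice were C57BL/6 and 8 weeks old. In the 4 WT libraries the genotype was CTCF fl/fl Albcre-, that is, floxed Ctcf with no Cre recombinase. The 4 cKO libraries were CTCF fl/fl Albcre+, in which Cre is made under the albumin promoter and so in hepatocytes rather than in the other main cell types of the liver. CTCF, a DNA-binding protein, helps to fold chromatin into loops. All 8 libraries carried the floxed alleles. A control with Cre and intact Ctcf is not among them, and effects of Cre and of Ctcf loss cannot be told apart. The labels do not say that the libraries of a genotype came from separate mice, and p-values therefore measure the spread between these libraries, which may be technical.

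Complex II (succinate dehydrogenase) passes electrons from succinate to ubiquinone and is also an enzyme of the citric acid cycle. Complex III passes them on to cytochrome c and complex IV from cytochrome c to oxygen, and both help to build the proton gradient that ATP synthase uses to make ATP. Complex II is encoded wholly in the nucleus, whereas complexes III, IV and V also need subunits made from mitochondrial DNA, so that both genomes must supply parts. Hepatocytes are rich in mitochondria and draw on this chain for urea synthesis, gluconeogenesis and fat oxidation.

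Assigned counts ran from 43.9 to 57.3 M per library. Levels are given as CPM, counts scaled to library size with TMM factors, and as TPM, which also divide by transcript length, where genes are set beside each other. Ctcf was 16.5 ± 0.41 CPM in WT and 12.2 ± 0.946 in cKO, written as mean ± SD over n = 4 libraries like all levels in this form, a log2 change of -0.44 ± 0.08 (SE; edgeR quasi-likelihood test, adjusted p = 0.00177). Hepatocyte markers were abundant, with a summed level of 85394 to 114566 CPM in WT and 98736 to 110512 in cKO over the 9 found of 10. Of these 9, 5 were lower and 1 was higher in cKO (edgeR adjusted p under 0.05). All 12 stellate cell and fibroblast markers were higher in cKO by the same test. Their sums were 242.9 to 268.8 CPM in WT and 444.1 to 577.2 in cKO. Of all genes tested, 15.2% were higher and 14.9% lower. In whole tissue, fewer cells of a type and less RNA per cell cannot be told apart, and the part of cell composition in the results below was not tested.

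Of the 53 genes, 48 passed the filter on low counts. In cKO 6 of them rose and 12 fell (edgeR quasi-likelihood test, adjusted p under 0.05 over all 15562 genes tested). That is 37.5% called, beside 30.1% of all genes tested. Of the 48, 12.5% were higher, beside 15.2%, and 25.0% were lower, beside 14.9%. Most are abundant, 40 being above 100 CPM. Other tested genes above 100 CPM, split by transcript length, were lower in 22.1% to 28.7% and higher in 1.82% to 16.2%. Both shares of the 48 lay within these ranges, but the ranges span all length classes, and single classes differed. Up to 400 bases, 7 of 16 of the 48 were lower, beside 25.5% of the other abundant genes. From 400 to 600 bases it was 3 of 11, beside 25.0%, and from 600 to 1000 bases 0 of 7, beside 28.7%. From 1000 to 1500 bases 4 of 8 were higher, beside 10.2%. These classes are small, include genes of the 48 at lower levels, and their differences were not tested. The median log2 change (cKO minus WT) was -0.11 over the 48, beside -0.007 over all tested genes. In 25 of the 48 (52.1%) the libraries of the genotypes did not overlap in CPM, beside 30.6% of all tested. That background holds genes of all levels. No such share is given for other genes above 100 CPM, so the excess cannot be called particular to the 48. No change was large: the log2 values ran from -0.72 for Atp5sl to 0.69 for Cox6b2, and among the other 15 called subunits and carrier every change lay between -0.46 and 0.47.

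By complex, the share called in either direction was 25.0% for II, 33.3% for III, 46.2% for IV and 35.3% for V. Beside 30.1% of all genes tested, II, III and V lay near the background in this pooled share. Higher were 25.0%, 0%, 15.4% and 5.88% of II, III, IV and V, beside 15.2% of all. Lower were 0%, 33.3%, 30.8% and 29.4%, beside 14.9% of all and 22.1% to 28.7% of other genes above 100 CPM. Complex II had 2 higher and 0 lower of 8 tested, complex III 0 higher and 3 lower of 9, complex IV 2 higher and 4 lower of 13, and complex V 1 higher and 5 lower of 17, while Cycs was higher. The median log2 change was 0.09, -0.18, -0.17 and -0.15 for complexes II, III, IV and V. A test of the difference between complexes was not run.

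**Figure D1:**
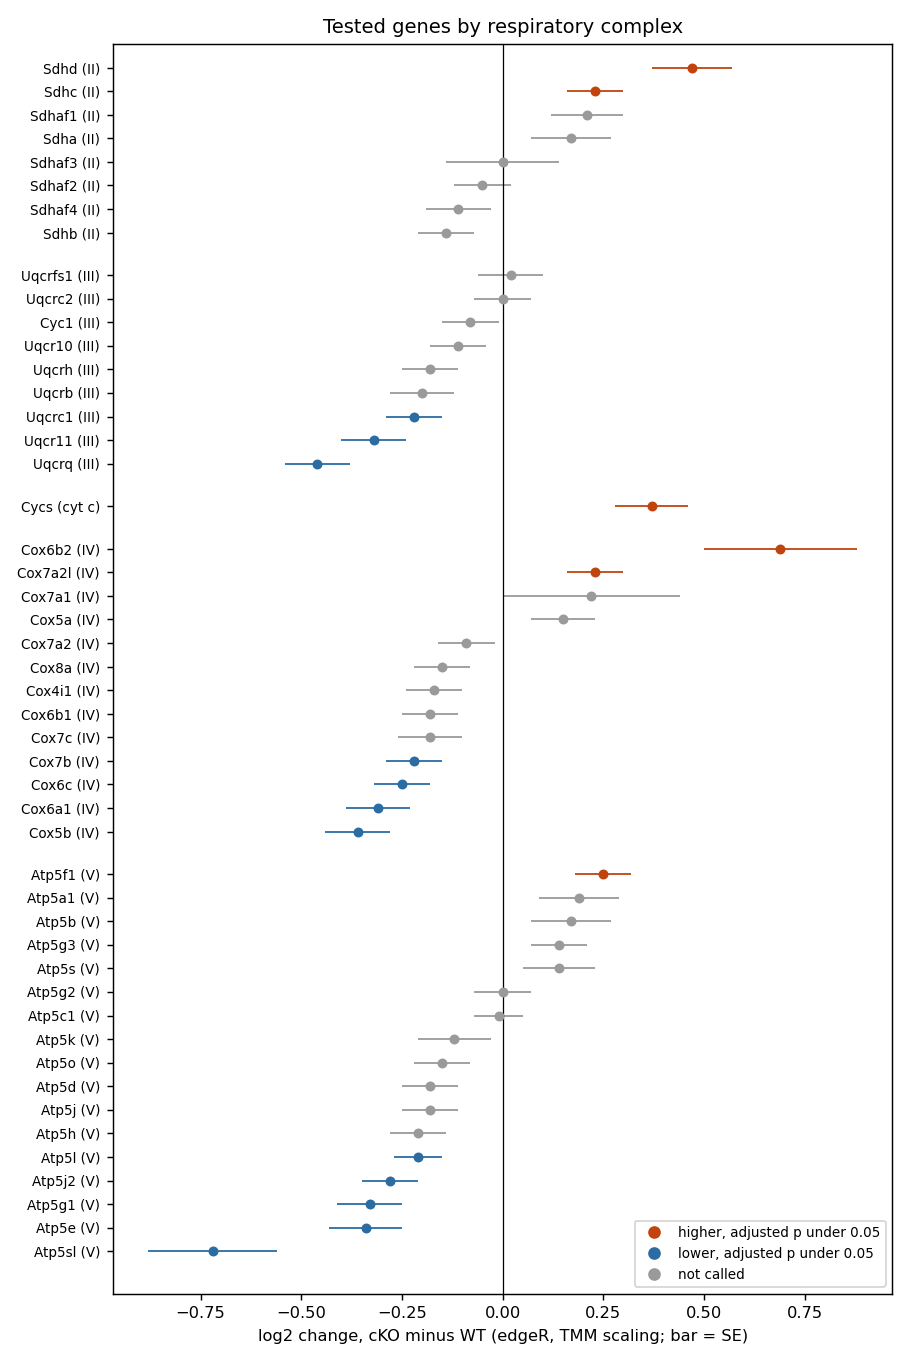
Log2 change (cKO minus WT) of each tested gene on the horizontal axis with its standard error as a bar, grouped by complex, with called genes marked. Complex II and cytochrome c hold called genes to the right of 0 only and complex III to the left only, and the values run from -0.72 to 0.69.

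The upstream sequences of 4 called genes are shown because these had the 2 largest falls (Cox5b, Atp5e) and the 2 largest rises (Cycs, Sdhd) among called subunits and carrier above 50 CPM in WT for which RefSeq's promoter table (GRCm38.p6) holds a window. They end at the base before the transcription start and cover 250 bases, or fewer where the start of a neighbour on the other strand lies closer, as for Cycs and Sdhd. Capitals mark matches, on either strand, to short motifs listed after the sequences.
Cox5b: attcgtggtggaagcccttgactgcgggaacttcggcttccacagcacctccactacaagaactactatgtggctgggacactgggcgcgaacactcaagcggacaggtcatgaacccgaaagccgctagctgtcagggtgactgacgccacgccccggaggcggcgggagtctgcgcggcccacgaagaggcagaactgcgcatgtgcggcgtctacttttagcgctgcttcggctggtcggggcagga
Atp5e: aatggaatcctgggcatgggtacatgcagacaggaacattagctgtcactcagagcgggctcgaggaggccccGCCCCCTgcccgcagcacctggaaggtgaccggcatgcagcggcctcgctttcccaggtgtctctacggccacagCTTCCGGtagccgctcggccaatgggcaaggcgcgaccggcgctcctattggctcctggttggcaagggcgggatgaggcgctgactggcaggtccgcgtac
Cycs: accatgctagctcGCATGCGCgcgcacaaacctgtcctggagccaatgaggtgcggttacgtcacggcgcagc
Sdhd: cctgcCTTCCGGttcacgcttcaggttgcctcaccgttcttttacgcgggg
These lie at chr1:36691237-36691486 on the plus strand (Cox5b), and on the minus strand at chr2:174464102-174464351 (Atp5e), chr6:50566570-50566642 (Cycs) and chr9:50603850-50603900 (Sdhd).

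Windows of 250 bases were found for 42 of the 53 genes (46 windows) and compared with all 32851 windows of the table. A total of 8 motifs was searched on both strands. The ETS core CCGGAAG, which GABP binds, stood in 23.9% of the 46 windows and 6.91% of all, and the NRF1 core GCATGCGC in 13.0% and 2.26%. AAGATGGCG, a YY1 core, stood in 4.35% and 0.606%, TGACCTT, an ERR core, in 4.35% and 4.08%, and a longer NRF1 palindrome in 15.2% and 3.74%. AGGGGGC, a short part of the CTCF motif that overlaps other GC-rich motifs, stood in 19.6% and 9.43%, whereas neither of the 2 longer CTCF forms searched matched any of the 46 windows (0.377% and 0.0335% of all). Median GC content was 55.4% in the 46 windows and 52.4% in all. The ETS core stood in 11 of the 42 genes with a window, in 4 of the 10 lower and 1 of the 5 higher ones, and the short CTCF core in 8 of the 42, likewise in 4 lower and 1 higher. In the sequences printed, the ETS core began 46 bases before the start of Sdhd and 102 before that of Atp5e, the NRF1 core 60 bases before that of Cycs, and the short CTCF core 177 before that of Atp5e. Cox5b held none of the 8. The counts over windows used all 250 bases, also where the printed sequence is shorter. In its full window Sdhd also held the longer NRF1 palindrome, which is absent from its 51 printed bases. The short CTCF core is part of 1 of the longer forms, and the NRF1 motifs can overlap each other. These matches describe letters and no binding was measured.

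In complex II the called genes were the membrane anchors. Sdhd and Sdhc encode the small and large cytochrome b subunits that hold the enzyme in the inner membrane and bind ubiquinone. Sdhd was at 168.0, 191.1, 152.3 and 193.3 CPM in WT libraries 1 to 4 and at 222.8, 223.0, 240.8 and 289.1 in cKO libraries 1 to 4, the order used for all such lists. Every cKO library was above every WT library, cKO 4 being the highest, and the rise was 1.38-fold (log2 0.47 ± 0.10 SE, edgeR adjusted p = 0.00659). It passed in all 21 alternative settings. Sdhc had 147.5, 140.3, 130.6 and 135.3 CPM in WT and 156.4, 160.6, 154.6 and 176.5 in cKO. Its groups did not overlap either, and it rose 1.17-fold (log2 0.23 ± 0.07, edgeR adjusted p = 0.0314), a call lost without WT 2, WT 3, WT 4 or cKO 4 (adjusted p 0.0515 to 0.095). Sdhd starts 52 bases from Timm8b, a mitochondrial import gene on the other strand, whose level was 39.1 ± 3.83 CPM in WT and 38.4 ± 1.79 in cKO (log2 -0.02 ± 0.08, edgeR adjusted p = 0.838).

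The catalytic subunits did not pass. Sdha, the flavoprotein that oxidises succinate, was at 242.4 ± 23.1 CPM in WT and 272.8 ± 38.7 in cKO (log2 0.17 ± 0.10, edgeR adjusted p = 0.237). Sdhb, the iron-sulfur subunit, had the highest mean TPM of complex II in WT (228.8 ± 7.81, Sdhd 175.4 ± 21.3), whereas in cKO Sdhd had (276.3 ± 42.0, Sdhb 236.4 ± 15.3). Sdhb had 217.1, 213.6, 205.8 and 205.2 CPM in WT and 181.5, 206.5, 178.7 and 198.6 in cKO. Its groups overlapped, with a log2 change of -0.14 ± 0.07 (edgeR adjusted p = 0.163). Per length, the 4 subunits summed to 625.5 ± 33.9 TPM in WT and 797.6 ± 80.5 TPM in cKO, and the groups did not overlap. None of the 4 assembly factors passed, the log2 changes running from -0.11 to 0.21.

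Cycs encodes somatic cytochrome c, which shuttles electrons between complexes III and IV and, once released to the cytosol, triggers apoptosis. It was at 120.8, 99.8, 108.2 and 115.8 CPM in WT and 124.1, 145.6, 156.1 and 147.3 in cKO. The lowest cKO library, cKO 1, lay just above the highest WT library, WT 1. Cycs rose 1.29-fold (log2 0.37 ± 0.09, edgeR adjusted p = 0.00922), a call lost with an offset for effective length, where the log2 change was 0.23. Part of its reads was shared with other genes in all 8 libraries, as its fractional counts show.

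Complex III had falls only. Uqcrq, a small subunit that binds next to cytochrome b, was at 470.3, 427.5, 426.2 and 428.0 CPM in WT and 331.4, 343.0, 313.1 and 287.4 in cKO. The groups stood well apart and Uqcrq fell to 72.8% of WT (log2 -0.46 ± 0.08, edgeR adjusted p = 0.00151), the smallest adjusted p of the 48, and it passed in all 21 alternatives. In RefSeq it overlaps Gdf9, so that reads of the pair may be hard to divide. The counts of Uqcrq were, however, fractional in 0 libraries.

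Uqcr11, another small subunit, had 272.2, 253.0, 242.5 and 245.9 CPM in WT and 208.9, 222.2, 191.4 and 189.7 in cKO. No cKO library reached the WT range, and the log2 change was -0.32 ± 0.08 (edgeR adjusted p = 0.00903). On both TPM forms it was -0.13 and the call was lost. Uqcrc1, a core subunit on the matrix side, had 278.4, 266.8, 263.9 and 276.5 CPM in WT and 230.3, 232.7, 221.8 and 247.4 in cKO. It fell by 0.22 ± 0.07 on the log2 scale (edgeR adjusted p = 0.026), and the call was lost in 9 of 21 alternatives, among them leaving out WT 1, cKO 1, cKO 2 or cKO 3. The subunits that carry the redox centres encoded in the nucleus did not pass: Cyc1, cytochrome c1, was at -0.08 ± 0.07 on the log2 scale (edgeR adjusted p = 0.402) and Uqcrfs1, the Rieske iron-sulfur protein, at 0.02 ± 0.08 (0.879). Uqcrc2, the other core subunit, was at 207.5 ± 6.48 CPM in WT and 208.0 ± 14.1 in cKO. Uqcr10, Uqcrb and Uqcrh did not pass, with log2 changes between -0.20 and -0.11.

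In complex IV 4 subunits fell and 1 rose. Cox5b, which lies on the matrix side, had 305.4, 263.9, 276.4 and 281.8 CPM in WT and 219.6, 238.8, 221.2 and 200.6 in cKO. The groups did not overlap, the fall was to 78.1% of WT (log2 -0.36 ± 0.08, edgeR adjusted p = 0.00562), and it passed in all 21 alternatives. Its counts were fractional in all 8 libraries, so part of its reads was shared with other genes. Cox6a1, the liver form of subunit VIa, had 386.7, 342.8, 349.1 and 326.3 CPM in WT and 292.6, 303.1, 276.2 and 261.2 in cKO. It too fell without overlap, by 0.31 ± 0.08 on the log2 scale (edgeR adjusted p = 0.012). The call was lost with both library size scalings and both TPM forms, where the log2 change reached -0.12.

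The other falls were smaller. Cox6c had 313.3, 288.9, 286.4 and 270.5 CPM in WT and 232.0, 256.5, 256.2 and 229.7 in cKO. Cox7b, on the X chromosome, had 243.0, 224.6, 229.9 and 224.8 CPM in WT and 185.9, 209.7, 205.4 and 192.4 in cKO. Both are small membrane subunits, both were without overlap, and their log2 changes were -0.25 ± 0.07 and -0.22 ± 0.07 (edgeR adjusted p = 0.0252 and 0.0324). The calls were lost in 10 and 11 of 21 alternatives. Cox7a2l, which takes part in joining complexes III and IV into supercomplexes, was at 102.2, 106.7, 98.0 and 109.1 CPM in WT and 123.5, 110.2, 124.9 and 128.4 in cKO. All cKO libraries were above WT, cKO 2 narrowly, and it rose by log2 0.23 ± 0.07 (edgeR adjusted p = 0.0319), a call lost on leaving out any of WT 1, WT 2, WT 3, cKO 1, cKO 3 or cKO 4.

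Cox4i1, the common form of the regulatory subunit IV and the complex IV gene of highest TPM, had 675.5, 628.3, 609.5 and 621.0 CPM in WT and 564.8, 564.1, 545.3 and 574.6 in cKO. Its groups did not overlap, yet it did not pass (log2 -0.17 ± 0.07, edgeR adjusted p = 0.0739). Cox5a, which encodes a different subunit from Cox5b, was at 0.15 ± 0.08 on the log2 scale (edgeR adjusted p = 0.18). Cox7a2, Cox6b1, Cox7c and Cox8a did not pass either, with log2 changes between -0.18 and -0.09.

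Several complex IV subunits have a second form that is used in muscle, lung or testis. Cox6b2, the testis form of subunit VIb, had 4.0, 2.19, 2.29 and 2.62 CPM in WT and 4.40, 4.93, 3.73 and 4.98 in cKO. It rose by log2 0.69 ± 0.19 (edgeR adjusted p = 0.0173), but WT 1 lay above cKO 3, and the call was lost without WT 2 or WT 3 (adjusted p 0.052 and 0.0541). Cox7a1, the heart and muscle form of VIIa, was low, at 1.53, 0.802, 0.917 and 1.1 CPM in WT and 1.28, 1.52, 1.26 and 1.06 in cKO. It was not called (log2 0.22 ± 0.22, edgeR adjusted p = 0.475).

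The remaining forms were too low to be tested. Cox8b, the muscle form of VIII, had 0, 0, 0 and 0.0702 CPM in WT and 0.134, 0.115, 0.0924 and 0.0682 in cKO. Cox4i2, a form known from lung, had 0.0408, 0.0472, 0.115 and 0.0234 CPM in WT and 0.115, 0.0575, 0.0554 and 0.017 in cKO. Cox6a2, the muscle form of VIa, had 0.0408, 0, 0.0917 and 0.0702 CPM in WT and 0.0191, 0.134, 0.037 and 0.0682 in cKO. Both sets of values overlap and rest on a handful of reads. Cox7b2 and Cox8c, known from testis, had a count of 0 in all 8 libraries, which allows up to 0.0524 to 0.0683 CPM per library (3 counts, counting error only, scaled to the total). None of the 10 striated muscle markers passed the filter, and their sum was at most 0.275 CPM in any library.

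In complex V 5 genes fell, 1 rose and the large subunits of the catalytic head did not pass. Atp5b, the catalytic beta subunit and the gene of highest TPM in this complex, had 963.3, 999.2, 905.3 and 1181 CPM in WT and 1058, 1100, 1074 and 1326 in cKO. The groups overlapped through WT 4, and the change did not pass (log2 0.17 ± 0.10, edgeR adjusted p = 0.229). Atp5a1, the alpha subunit, did not pass either (log2 0.19 ± 0.10, edgeR adjusted p = 0.165), and Atp5c1, the gamma subunit of the rotating shaft, was at 276.7 ± 8.15 CPM in WT and 274.1 ± 6.29 in cKO. Atp5e, the epsilon subunit at the foot of that shaft, had 240.9, 207.7, 217.5 and 204.7 CPM in WT and 172.0, 190.4, 173.0 and 150.6 in cKO. It fell without overlap to 78.8% of WT (log2 -0.34 ± 0.09, edgeR adjusted p = 0.0113), a call lost with library size alone and on both TPM forms, where the log2 change reached -0.15.

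Atp5f1 (RefSeq Atp5pb), subunit b of the side stalk that keeps the head from turning, was the called gene that rose. It had 249.7, 251.4, 232.4 and 264.4 CPM in WT and 281.2, 286.6, 297.5 and 323.8 in cKO. Every cKO library was above WT (log2 0.25 ± 0.07, edgeR adjusted p = 0.0227), and the call was lost without WT 2, WT 3 or cKO 4. Atp5h, Atp5j and Atp5o, of the same stalk, did not pass, with log2 changes between -0.21 and -0.15. Atp5j starts 148 bases from Gabpa, which encodes the DNA-binding part of GABP and rose by log2 0.25 ± 0.07 (edgeR adjusted p = 0.0165). The 2 genes overlap in RefSeq, and the counts of Atp5j were fractional in 7 libraries. Of other close neighbours, Cpsf7 beside Sdhaf2 (log2 -0.47) and Zmat5 beside Uqcr10 (-0.38) fell (edgeR adjusted p = 0.00583 and 0.0463). The tested neighbours of Atp5c1, Atp5f1, Atp5h, Cycs, Sdha and Uqcrh were not called. The part of neighbours in the changes was not tested.

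Among the membrane subunits, Atp5g1, 1 of 3 genes for subunit c of the proton-driven ring, had 267.1, 222.1, 227.4 and 226.2 CPM in WT and 195.3, 196.7, 177.5 and 181.1 in cKO. Its groups did not overlap (log2 -0.33 ± 0.08, edgeR adjusted p = 0.0095). Atp5j2, subunit f, had 237.1, 219.7, 214.9 and 222.2 CPM in WT and 184.5, 197.0, 174.7 and 178.1 in cKO, also without overlap (log2 -0.28 ± 0.07, edgeR adjusted p = 0.00996). The calls of Atp5g1 and Atp5j2 were lost with library size alone and on both TPM forms, where the log2 changes reached -0.15 and -0.16. Atp5l, subunit g, which takes part in the pairing of 2 ATP synthases, had 274.5, 265.4, 265.2 and 281.5 CPM in WT and 226.2, 240.8, 239.0 and 235.1 in cKO. It fell by 0.21 ± 0.06 on the log2 scale (edgeR adjusted p = 0.0283), but this call was lost in 14 of 21 alternatives, including the removal of any 1 library. Atp5d, the delta subunit of the shaft, Atp5k, subunit e, and Atp5s did not pass, with log2 changes between -0.18 and 0.14. Atp5sl, which is no ATP synthase subunit, had the largest fall of the 48, from 65.5, 58.9, 55.7 and 47.0 CPM in WT to 38.7, 42.6, 26.3 and 30.5 in cKO. It passed in all 21 alternatives (log2 -0.72 ± 0.16, edgeR adjusted p = 0.00847).

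**Figure D2:**
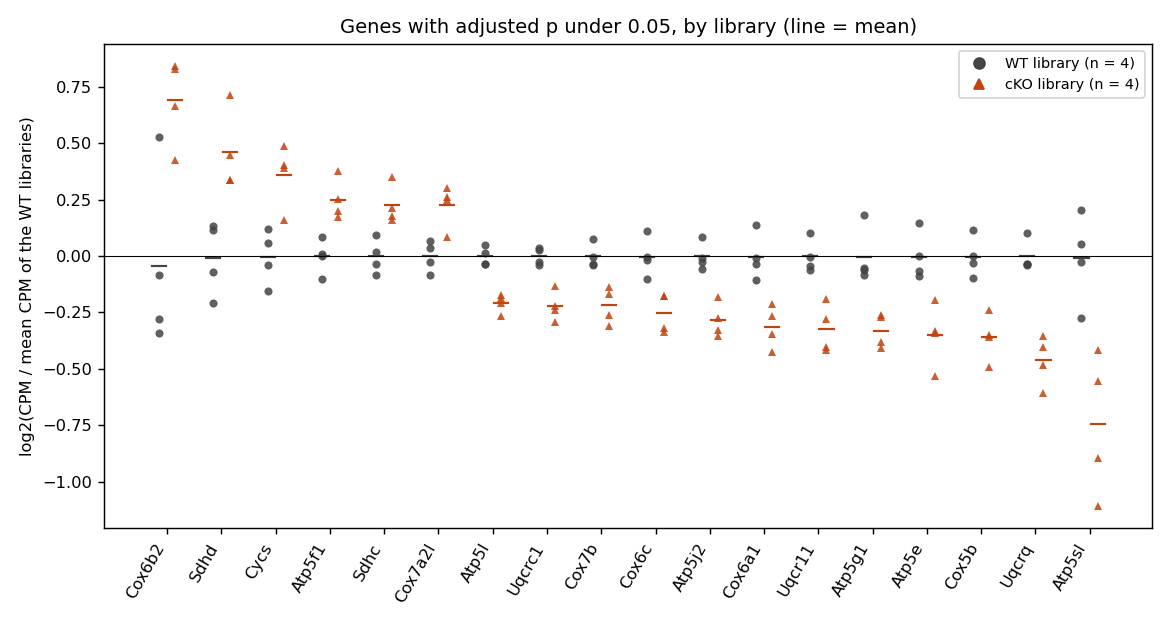
Level of each of the 18 called genes in each library, relative to its WT mean on a log2 scale, as circles for WT and triangles for cKO, with a line at each mean. The genotypes overlap for Cox6b2 and for none of the other 17 genes.

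The libraries of a genotype did not vary independently from gene to gene. WT 1 was the highest WT library for 11 of the 12 lower genes, and cKO 2 the highest cKO library for 11 of the 12. For the 6 higher genes, cKO 4 was the highest cKO library in 5. Without WT 2 or without WT 3 the number that rose was 2, and without cKO 4 it was 3; the number that fell ranged from 8 to 13 over the 8 removals. What moved these libraries together was not tested.

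The 3 subunit c genes encode the same mature protein and differ in their import signals, so their shares were compared in TPM. Atp5g1 made up 33.9 ± 2.13% of their sum in WT and 27.2 ± 1.81% in cKO. Atp5g3 made up 52.6 ± 2.33% and 59.0 ± 1.63%. Neither pair of groups overlapped, and each exact two-sided permutation test over 70 assignments gave p = 0.0286, the smallest these allow, and 0.0571 after adjustment over the 8 shares tested, which misses 0.05. Atp5g2 was at 13.5 ± 0.327% and 13.8 ± 0.572% (exact p = 0.457). Atp5g1 and Atp5g2 had fractional counts in all 8 libraries, so their split rests in part on how shared reads were divided. Cox6b2 was 0.945 ± 0.24% of subunit VIb in WT and 1.75 ± 0.26% in cKO, with the same p before and after adjustment. The Cox8b share of subunit VIII had this p too, but it rests on 0, 0, 0 and 3 reads in WT and 7, 6, 5 and 4 in cKO, and its CPM values overlapped, so nothing is read from it. For Cox7a1, Cox6a2 and Cox4i2 the adjusted p ran from 0.183 to 0.657.

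**Figure D3:**
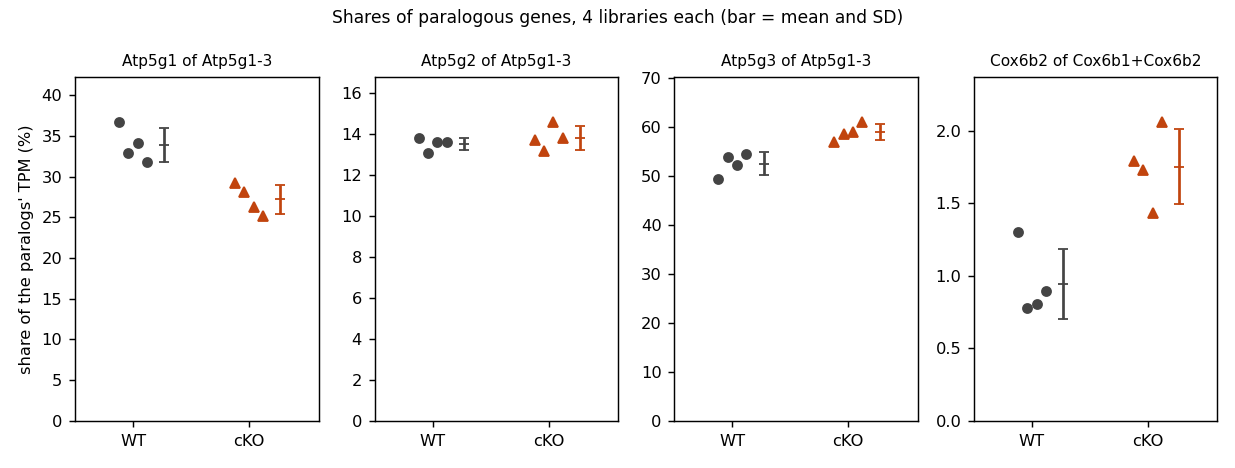
Share of each paralog in the summed TPM of its group, in percent, with 1 point per library and a bar for mean and SD, for Atp5g1, Atp5g2, Atp5g3 and Cox6b2. The Atp5g1 share is lower and the Atp5g3 share higher in all 4 cKO libraries than in any WT library, whereas the Atp5g2 shares overlap.

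The direction of the small changes rested on scaling. With library size alone, which shifts the median of all genes to 0.099, 10 of the 48 were higher and 4 lower; over all genes the higher share of calls went from 50.5% to 73.2%. On log2(TPM + 1), tested with limma, 11 were higher and 3 lower, the median of all genes was 0.097, and 17 of the 48 changed sign. Relative to the median of all genes, the median of the 48 was -0.11 with TMM, -0.11 with library size alone, -0.04 on log2(TPM + 1) and -0.09 on log2(TPM + 0.1), so that in TPM it depended on the pseudocount. None of the 18 called genes changed sign in any of the 21 alternatives. In TPM all 6 higher genes had a higher mean in cKO and all 12 lower genes a lower one, but 28 of the 30 that did not pass had a higher mean TPM in cKO. As a share of all transcripts, the 46 subunits and carrier were 2.22 ± 0.112% of TPM in WT and 2.25 ± 0.0531% in cKO. Their summed CPM, written on the same percent scale, was 1.12 ± 0.0435 in WT and 1.07 ± 0.0361 in cKO. These 2 values are not shares of the counts, because CPM were divided by TMM factors. The factors were 0.958 to 0.973 in WT and 1.023 to 1.062 in cKO, so the lower cKO value is no fall in share.

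**Figure D4:**
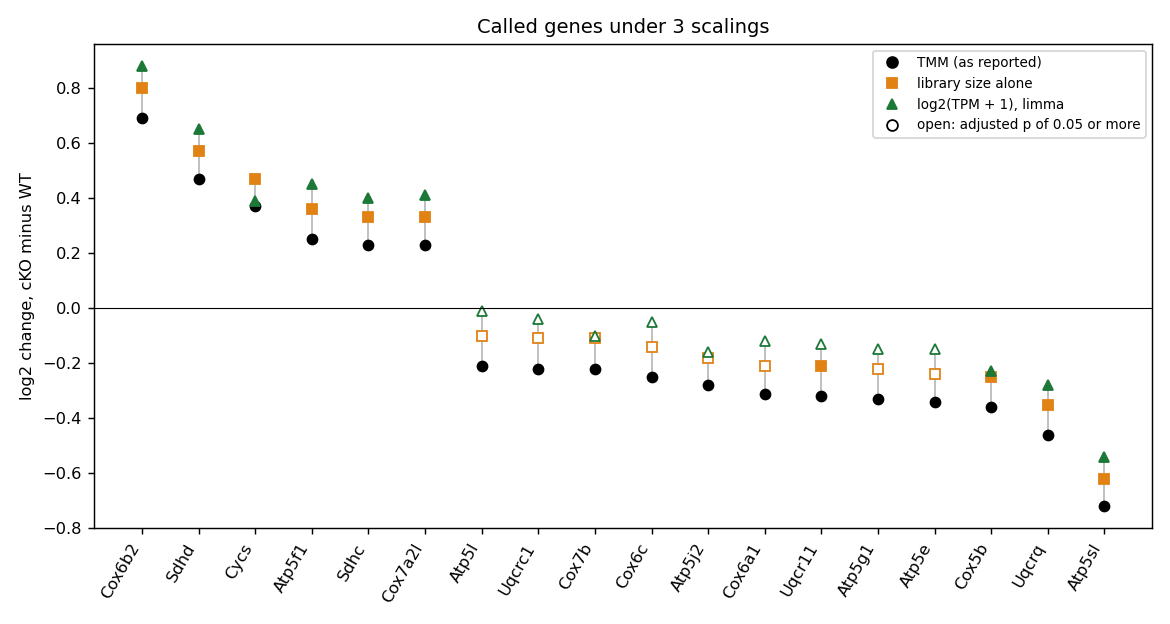
Log2 change (cKO minus WT) of the 18 called genes with TMM, with library size alone and on log2(TPM + 1), open symbols marking an adjusted p of 0.05 or more. Both other scalings move the genes upward, none crosses 0, and open symbols appear among the 12 lower genes only.

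The summed levels by complex showed the same dependence. Complex III was 2254 ± 111.2 CPM in WT and 1972 ± 40.7 in cKO, a ratio of 0.875, but 5113 ± 307.1 and 4899 ± 67.4 TPM, a ratio of 0.958. Complex IV gave ratios of 0.876 in CPM and 0.991 in TPM, complex V 1.00 and 1.04, and complex II 1.13 and 1.28.

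Most of these transcripts are short, and the change went with effective length. Spearman's rho between length and log2 change was 0.47 over the 48 genes and 0.66 over the 40 above 100 CPM, beside 0.20 over all 15562 tested genes and 0.14 over the 1202 above 100 CPM; genes are not independent replicates, so these are descriptions. Among genes of up to 400 bases the median log2 change was -0.19 for 16 of the 48, -0.19 for all 679 tested genes of that length, and -0.12 for 55 other genes above 100 CPM. From 1000 to 1500 bases it was 0.12 for 8 of the 48 and -0.03 for all 2377. With an offset for effective length 5 were higher and 11 lower, and 16 of the 18 calls were kept, those of Cycs and Atp5l being lost. The offset corrects only differences between libraries in the effective length of the same gene. It cannot remove a trend with length across genes, so the calls kept do not bear on that trend. RNA quality was not measured in the sources used here and its part in the relation to length was not tested.

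**Figure D5:**
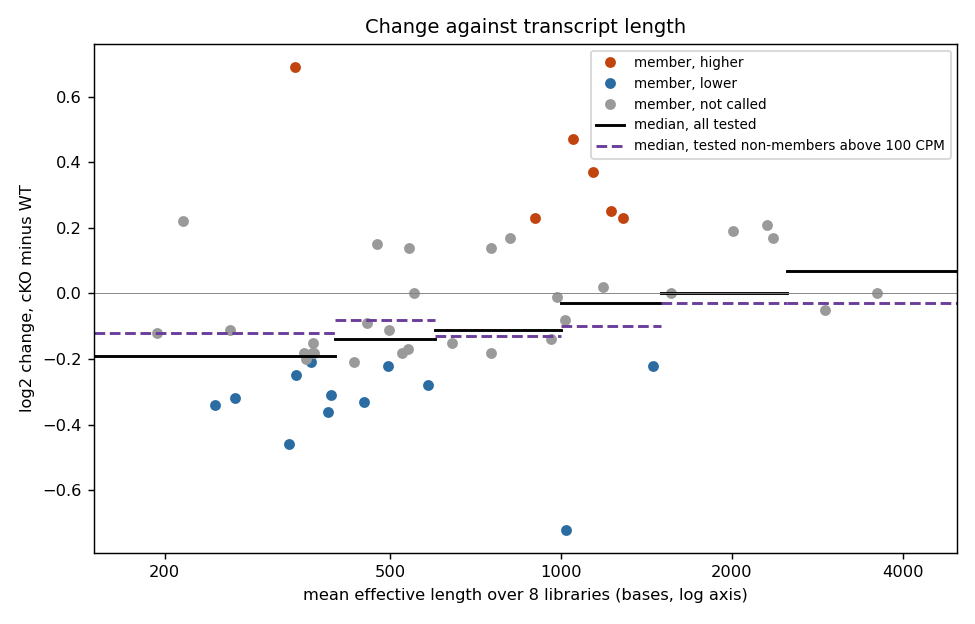
Log2 change (cKO minus WT) against effective length in bases on a log axis for the 48 genes, coloured by call, with lines for the median by length of all tested genes and of other genes above 100 CPM. The median change is -0.19 up to 400 bases, both for the 48 and for all tested genes.

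Other genes of the pathway came from fixed lists, whose counts stand beside 15.2% higher and 14.9% lower (30.1% called) of all genes tested. Among factors that build complex III, 3 of 6 fell and 0 rose: Uqcc2, needed for cytochrome b, went from 25.7 ± 1.45 to 17.3 ± 3.0 CPM (log2 -0.57 ± 0.11, edgeR adjusted p = 0.00332), with Bcs1l (-0.29), which inserts the Rieske protein, and Uqcc3 (-0.24). Of the 24 tested for complex IV, 4 fell and 1 rose, a share called below that of all genes, led by Pet100 (log2 -0.41 ± 0.09, edgeR adjusted p = 0.00577), with Cox14 (-0.27) and Cmc2 (-0.24) lower and Cox15 (0.25), which makes heme a, higher. Of 7 for complex V, Fmc1 fell (log2 -0.53 ± 0.08, edgeR adjusted p = 0.000637) and Atpif1, the inhibitor of ATP hydrolysis, rose (0.31 ± 0.08, 0.0144). None of the 4 for complex II passed.

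None of the 6 subunits of complexes III to V encoded in mitochondrial DNA passed, the nearest being mt-Co1 (log2 -0.34 ± 0.13, edgeR adjusted p = 0.056). Of 14 regulators of mitochondrial genes, Polrmt (-0.33), the mitochondrial RNA polymerase, and Polg (-0.27), the mitochondrial DNA polymerase, fell and Gabpa rose, again a share below that of all genes. Of 15 markers of mitochondrial content 8 rose and 0 fell, beside 15.2% higher and 14.9% lower of all genes, with Tomm20, an outer membrane import receptor, at 35.5 ± 4.54 CPM in WT and 71.9 ± 9.09 in cKO (log2 1.02 ± 0.11, edgeR adjusted p = 0.000108). Slc25a4 (0.81), an ADP/ATP carrier at a low 3.71 ± 0.81 CPM in WT, Hspd1 (0.46), a chaperone, and Vdac1 (0.31), an outer membrane channel, rose too. The markers that did not pass had log2 changes from -0.02 (Phb) to 0.28 (Hspe1), with Cs at 0.08 ± 0.08 (edgeR adjusted p = 0.481). Of 7 mitochondrial stress genes Clpp, a matrix protease, fell (log2 -0.35 ± 0.09, edgeR adjusted p = 0.0124). No test of the difference between these lists was run.

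Of markers of other cells, 4 of 10 for macrophages, 1 of 8 for endothelium and 2 of 5 tested for cholangiocytes were higher and 1 of these 5 was lower, beside 15.2% higher and 14.9% lower of all genes tested; the endothelial share is near that background. Summed levels of the macrophage list were 231.1 to 349.3 CPM in WT and 197.0 to 316.1 in cKO, and of the endothelial list 94.5 to 182.0 and 130.4 to 202.6 CPM. The cholangiocyte list summed to 34.5 to 43.4 and 26.8 to 35.6 CPM. None of 5 erythroid genes tested passed, and of the brown fat list only Elovl3, which liver also expresses, was tested and was lower. Their part in the changes above was not tested.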

How the data were processed

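Per the labels' protocols, RNA was extracted from frozen liver with Trizol for TruSeq libraries. Per the submitters' processing notes, STAR 2.5.1, RSEM and mm10 were used. The sources used here give no annotation, RSEM version or strand setting. The authors deposited RSEM expected counts, with reads that fit several genes divided among them, TPM, which the authors scaled by length, effective lengths, and FPKM, which was not used. Of 48 tested genes 17 had fractional counts in some library (tolerance 0.005), and 15 overlap another RefSeq gene, so that their values are less certain. Among the 18 called genes, 8 had fractional counts: Uqcr11, Cox5b, Cox6c, Cox7a2l, Atp5f1, Atp5g1, Atp5l and Cycs. Another gene overlaps 4 of the 18: Sdhc, Uqcrq, Atp5l and Atp5sl.

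Expected counts were rounded and filtered with filterByExpr (minimum count 10, total 15), scaled with TMM and tested with edgeR 4.0.16 in R 4.3.3 (estimateDisp, robust glmQLFit, glmQLFTest, Benjamini-Hochberg at 0.05 over all 15562 tested genes). Standard errors came from the F statistic, and paralog shares were compared by exact permutation. The procedure was tested on simulated data. Libraries of a genotype differed by more than sampling noise (smallest ratio of chi-square to its degrees of freedom 28.5). Values per library are given for called genes, for the gene of highest TPM and of lowest adjusted p in each complex, and for tissue forms. From the other lists, at most 4 called genes are named. Positions and promoters came from RefSeq GRCm38.p6.

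Alternatives were other scaling factors, filters, DESeq2 1.42.0, limma 3.58.1 (voom and log2 TPM), a length offset, a replicate block, removal of the Mup genes, and leaving out each library. Members and lists were chosen with earlier results of these data known, and the length classes, neighbour distance (1000 bases), promoter windows and motifs after values were seen.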

Additional observations from a re-analysis of the deposited data

Results flagged for a closer look

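Of 96 groups of 4 libraries (48 genes in 2 genotypes), 8 (8.33%) held a library whose gap to its nearest neighbour was, as a part of the group's range, above Dixon's critical value, where chance gives about 1 in 20. WT 1 was high for Uqcrq (470.3 CPM, the next at 428.0), Cox6b1 (339.5 CPM, the next at 302.5) and Atp5g1 (267.1 CPM, the next at 227.4). Library cKO 4 was high for Sdha (330.2 CPM, the next at 259.3) and Atp5b (1326 CPM, the next at 1100). Low values were those of Uqcrc2 in WT 3 (197.8 CPM), Sdhaf4 in WT 2 (11 CPM) and Cox7a2 in cKO 1 (168.1 CPM).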

How the results depend on the processing

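Over all genes, 2367 rose and 2322 fell; with library size alone it was 3604 and 1318, on log2(TPM + 1) 3880 and 878, and on log2(TPM + 0.1) 3868 and 876, while library size without the 20 most abundant genes gave 1425 lower. Of the 48, 6 rose and 12 fell; the counts were 10 and 4 with library size alone, 9 and 7 without the 20 most abundant genes, 11 and 3 with either TPM form, 6 and 8 with no filter and 6 and 16 with DESeq2. Leaving out 1 library gave 2 to 6 higher and 8 to 13 lower, with 2 higher without WT 2 or WT 3 and 3 without cKO 4. With the replicate number as a block the counts were 6 and 12. Same-numbered libraries correlated at 0.04 to 0.06 in their deviations, so the numbers were not taken to pair samples. Calls kept in all 21 alternatives were Sdhd, Uqcrq, Cox5b and Atp5sl. No alternative changed how shared reads were divided among genes. Signs changed only among genes that did not pass: 4 with library size alone, 2 without the 20 most abundant genes, 17 on TPM, 2 with the length offset, 1 with no filter and up to 4 on leaving out a library. With library size alone the log2 change was 0.09 for Atp5c1, 0.02 for Cox7a2, 0.03 for Cyc1 and 0.05 for Sdhaf2, and without the 20 most abundant genes 0.06 for Atp5c1 and 0.03 for Sdhaf2. On log2(TPM + 1) and log2(TPM + 0.1) it was 0.17 and 0.17 for Atp5c1, 0.10 and 0.11 for Cyc1 and 0.12 and 0.13 for Sdhaf2. In both TPM forms it was 0.09 for Cox7a2 and Uqcr10, 0.08 for Atp5k, 0.07 for Sdhaf4, 0.04 for Sdhb, Cox6b1 and Atp5o, 0.03 for Cox8a, 0.01 for Atp5d, Atp5j, Cox4i1, Cox7c and Uqcrh, and 0.00 for Atp5h. The length offset gave -0.13 for Atp5b and 0.00 for Atp5c1, and no filter 0.00 for Atp5c1. Leaving out 1 library gave -0.03 to 0.00 for Atp5c1, -0.02 to 0.04 for Atp5g2, -0.09 to 0.14 for Sdhaf3, -0.03 to 0.04 for Uqcrc2 and -0.02 to 0.07 for Uqcrfs1, and a Cox4i2 share difference of -0.0013 to 0.00519 points. The cause of these shifts was not tested. Depth limits the tissue forms under about 5 CPM, and with 4 libraries a genotype no exact test can go below 0.0286.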
